A study of Mus musculus with 9 samples.

Results

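The sarcomere and Z-disc genes described here encode the proteins of the contractile unit of heart muscle and those that assemble, anchor or turn it over. They were taken by name from a list of 37 genes, all 37 were found, and they are 37 of the 13646 genes present in both deposited gene tables. RNA was sequenced from the hearts of C57BL/6 mice, 3 per group and each library from a separate animal, to ask what pressure overload changes and what puerarin changes in an overloaded heart. TAC+PUE mice had the aortic arch narrowed (transverse aortic constriction, TAC) and received puerarin, an isoflavone, into the peritoneum at 100 mg/kg per day starting 3 days before surgery. TAC mice had the same operation with saline, and sham mice had saline and the operation without narrowing. Hearts were taken 21 days after surgery, and the labels give an age of 10 weeks for every group. No group received puerarin without TAC, so an effect of the compound on an unloaded heart was not measured.

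The sarcomere is the repeating unit of striated muscle, in which thick filaments of myosin slide along thin filaments of actin, tropomyosin and troponin. Thin filaments are anchored at the Z-disc, thick filaments are joined at the M-band, and the giant protein titin spans the distance between both and acts as a spring. Desmin filaments and costameres tie the Z-discs to each other and to the cell membrane. Many Z-disc proteins also sense mechanical load, and several of these genes are known from inherited cardiomyopathy.

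All levels are in FPKM, which corrects for transcript length and is relative to the whole library. The 13 mRNAs of the mitochondrial genome took 14.2 to 25.9% of the summed FPKM in TAC+PUE hearts, 2.81 to 7.04% in TAC hearts and 31.6 to 42.9% in sham hearts, so the scale itself moved with the groups. The rRNA-like transcripts Gm26917 and Gm42418 took 1.11 to 2.52% in TAC+PUE, 4.81 to 7.50% in TAC and 0.519 to 1.11% in sham hearts. Fold changes are differences of log2(FPKM + 1) with their standard error from limma, tested over all genes, and a gene is said to have risen or fallen where the adjusted p was below 0.05. The atrial light chain Myl7 was uneven among the operated animals, at 27.4, 708 and 245 FPKM in TAC+PUE hearts, 79.8, 1.6 and 198 FPKM in TAC hearts and 1.07, 1.06 and 0.857 FPKM in sham hearts. With it, 4 atrial markers summed to 613 to 3732 FPKM in TAC+PUE, 586 to 885 FPKM in TAC and 71.7 to 76.6 FPKM in sham hearts. Of the 2 tested in TAC against sham, Myl7 and Nppa rose, and Nppa was more even in TAC hearts, at 478, 587 and 621 FPKM. Of the 5 cardiomyocyte markers, all were found at high level, with a summed FPKM of 4915 to 5297 in TAC+PUE, 5909 to 6597 in TAC and 5024 to 5540 in sham hearts. Of these, Myh6 rose in TAC against sham (0.47 ± 0.18, adjusted p = 0.0415). In the same comparison Ryr2 (-0.67 ± 0.13, adjusted p = 0.00151) and Pln (-2.09 ± 0.22, adjusted p = 5.83e-05) fell. Pln rose in TAC+PUE against TAC (1.66 ± 0.26, adjusted p = 0.00328). Fibroblast markers summed to 269 to 386 FPKM in TAC+PUE, 360 to 433 FPKM in TAC and 155 to 173 FPKM in sham hearts. The members differed. Of 6, Col1a1, Col3a1 and Col1a2 rose and Dcn fell in TAC against sham. Dcn and Postn rose while Col1a1 and Col3a1 fell in TAC+PUE against TAC. Macrophage markers summed to 114 to 148 FPKM in TAC+PUE, 159 to 197 FPKM in TAC and 89.1 to 97.8 FPKM in sham hearts. Of 5, Csf1r and C1qa rose and Cd163 fell in TAC against sham, and Adgre1 rose while C1qa fell in TAC+PUE against TAC. The 4 globin mRNAs of red blood cells summed to 1515 to 6006 FPKM in TAC+PUE, 5247 to 7640 FPKM in TAC and 1047 to 1272 FPKM in sham hearts, and all 4 rose in TAC against sham. Endothelial markers summed to 182 to 228 FPKM in TAC+PUE, 166 to 200.1 FPKM in TAC and 187 to 207 FPKM in sham hearts. Here too the members differed. Of 5, Egfl7 and Tie1 rose and Pecam1 and Cdh5 fell in TAC against sham. Pecam1 and Cdh5 rose while Egfl7 fell in TAC+PUE against TAC. Smooth muscle markers summed to 62.6 to 135 FPKM in TAC+PUE, 45.9 to 73.2 FPKM in TAC and 61.7 to 65.3 FPKM in sham hearts. Of the 3 tested, Myh11 and Tagln rose and Acta2 fell in TAC against sham. Of 7 skeletal muscle markers only Tnni2 was in both tables, at 0.295 to 1.37 FPKM. In whole hearts fewer cardiomyocytes and less RNA per cardiomyocyte cannot be told apart, and the part of these values in the results was not tested.

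Between TAC and sham hearts 15 of the 37 genes rose and 14 fell, where 25.3% of the 11687 genes tested rose and 37.7% fell. The median log2 fold change was -0.01 over the 37 genes and -0.12 over all genes. After median-ratio scaling, which moved the median of all genes to 0.02, 18 rose and 12 fell, where 4201 and 4066 of 11638 genes did. On a common total, with every library rescaled to the same summed FPKM, 19 rose and 6 fell with the median of all genes at 0.24. There 5311 and 2675 of 11656 genes tested rose and fell. With rRNA-like and mitochondrial transcripts taken out before that rescaling, 13 rose and 17 fell, where 2775 and 5834 of 12508 genes did. Between TAC+PUE and TAC hearts, a comparison that uses the same TAC libraries, 13 of 36 genes tested rose and 6 fell, against 32.9% and 5.45% of 11788 genes. The medians were 0.32 over the 36 genes and 0.24 over all genes. Median-ratio scaling, with the median of all genes at -0.05, turned this split to 5 higher and 13 lower. On that scale 2111 and 2648 of 11629 genes rose and fell. Most counts of direction in this comparison therefore depend on the scale. Neb, the nebulin gene, reached 1 FPKM in fewer than 3 of those 6 libraries and was not tested there. In TAC+PUE against sham hearts 8 genes rose and 1 fell, against 11.8% and 1.46% of 12222 genes. Median-ratio scaling gave 4 and 4, where 811 and 825 of 12147 genes rose and fell. Without the 3 libraries of at least 100 FPKM of Myl7, 14 rose and 15 fell in TAC against sham, where 2705 and 4915 of 11687 genes did. That choice leaves 1 TAC+PUE library, so its counts in the other comparisons are not given.

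**Figure D1:**
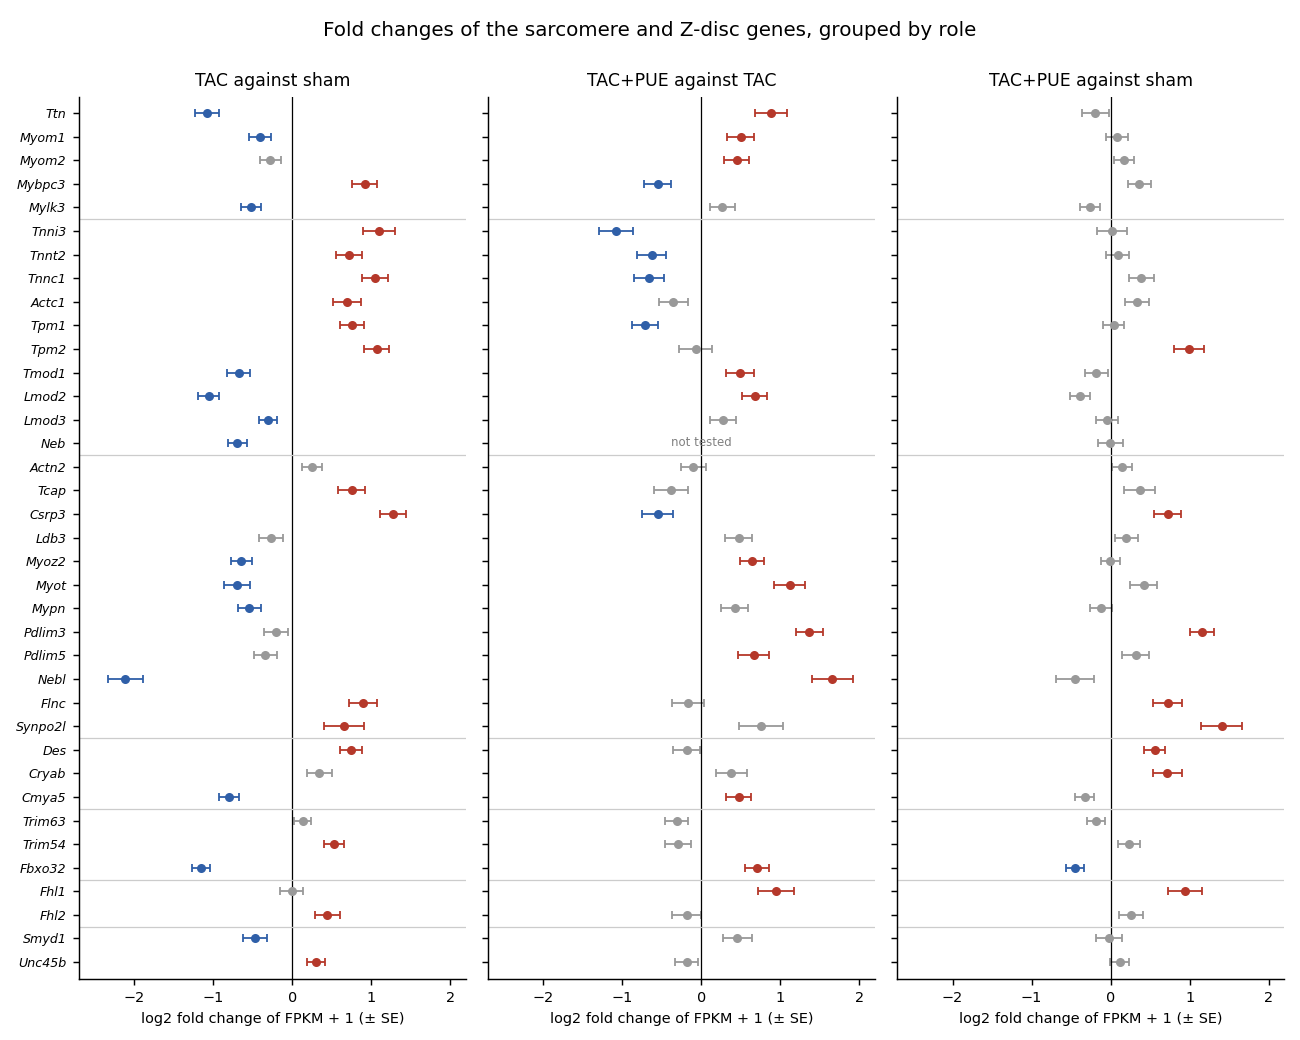
Log2 fold change of FPKM + 1 (horizontal axis, point, with its standard error as a bar) of each of the 37 genes in the 3 comparisons, in the order of their roles, with lines between roles. Red points rose, blue points fell and grey points did not pass the test, which gives 15 red and 14 blue points in the left panel, 13 and 6 in the middle panel and 8 and 1 in the right panel.

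Some of these genes share regulatory motifs although they moved apart. Serum response factor binds the CArG box and MEF2 its own AT-rich site, and both factors are known activators of muscle genes. RefSeq (GRCm38.p6) gives the bases before the start site for 30 of the 37 genes. Within 250 bases on both strands, a CArG box was found in 6 of the 30 (20.0%), namely Actc1, Fhl1, Fhl2, Ldb3, Myom1 and Nebl, against 1.62% of 27025 genes. For Nebl the box lay in the window chr2:17462857-17463106, and not in its windows further upstream, chr2:17526131-17526380 and chr2:17670166-17670415. A MEF2 site was found in 5 (16.7%), namely Fhl2, Mybpc3, Myoz2, Synpo2l and Ttn, against 3.42% of all genes. The GATA motif AGATAA stood in 6 (20.0%), against 11.4%, and the TATA motif TATAAA on the printed strand in 1 (3.33%, Trim63), against 8.94%. The windows of Ttn, which fell in TAC hearts, and of Mybpc3 and Actc1, which rose, are shown because the MEF2 site (Ttn and Mybpc3) or CArG box (Actc1), in capitals, stands before genes of either direction. They run 5′ to 3′ along the gene and end at the base before the start site.
Ttn, chr2:76982548-76982797, minus strand: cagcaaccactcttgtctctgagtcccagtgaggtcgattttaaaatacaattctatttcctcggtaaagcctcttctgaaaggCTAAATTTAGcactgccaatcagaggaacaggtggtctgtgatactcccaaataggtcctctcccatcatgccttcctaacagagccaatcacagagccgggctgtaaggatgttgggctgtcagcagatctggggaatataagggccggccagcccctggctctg
Mybpc3, chr2:91117894-91118143, plus strand: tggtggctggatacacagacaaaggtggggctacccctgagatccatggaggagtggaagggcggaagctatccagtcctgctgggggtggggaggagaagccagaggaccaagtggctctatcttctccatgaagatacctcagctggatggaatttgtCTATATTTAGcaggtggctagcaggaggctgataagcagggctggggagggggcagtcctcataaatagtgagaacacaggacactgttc
Actc1, chr2:114052876-114053125, minus strand: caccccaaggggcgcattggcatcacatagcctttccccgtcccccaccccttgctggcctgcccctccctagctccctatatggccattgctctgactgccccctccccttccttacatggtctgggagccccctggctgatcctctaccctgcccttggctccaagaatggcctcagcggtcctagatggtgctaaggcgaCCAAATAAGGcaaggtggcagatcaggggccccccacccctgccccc
Counted back from the start site, the capitals cover -166 to -157 in Ttn, -90 to -81 in Mybpc3 and -47 to -38 in Actc1. A match is a description of the letters, and binding was not measured.

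Among the 5 genes of the thick filament, the M-band and titin, 1 rose and 3 fell in TAC hearts against sham. Of all genes tested, 25.3% rose and 37.7% fell. The list was pulled apart by Ttn and Mybpc3. Ttn, the gene of titin, was at 362, 241 and 299.5 FPKM in TAC+PUE hearts, 129, 177 and 179.6 FPKM in TAC hearts and 338, 341 and 339 FPKM in sham hearts. Every TAC heart lay below every sham heart, and every TAC+PUE heart lay above every TAC heart, with a log2 fold change of -1.08 ± 0.15 for TAC against sham (adjusted p = 0.00023) and 0.89 ± 0.20 for TAC+PUE against TAC (adjusted p = 0.00761). Mybpc3 encodes cardiac myosin-binding protein C, which regulates cross-bridge cycling on the thick filament. It was at 678, 755 and 638 FPKM in TAC+PUE hearts, 1074, 1090 and 886 FPKM in TAC hearts and 502, 614 and 499 FPKM in sham hearts. This is the opposite order to Ttn, with the TAC hearts on top, a rise of 0.92 ± 0.16 over sham (adjusted p = 0.000724) and a change of -0.56 ± 0.17 in TAC+PUE against TAC hearts (adjusted p = 0.0272). The ratio of Ttn to Mybpc3 FPKM within a library, which no scaling of the library can alter, was 0.319 to 0.535 in TAC+PUE, 0.120 to 0.203 in TAC and 0.556 to 0.679 in sham hearts.

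Both myomesins, which crosslink thick filaments at the M-band, were lowest in TAC hearts. Myom1 was at 351, 283 and 269 FPKM in TAC+PUE hearts, 188, 239 and 211 FPKM in TAC hearts and 279, 286 and 280.1 FPKM in sham hearts. Myom2 was at 149, 164 and 157 FPKM in TAC+PUE hearts, 108, 133 and 105 FPKM in TAC hearts and 135, 149.7 and 134 FPKM in sham hearts. The TAC values of both genes lay below all others, yet the sizes were small: Myom1 fell by 0.41 on the log2 scale against sham (adjusted p = 0.0221), a call that turned to 0.02 on a common total and did not pass without sham replicate 1 (-0.42) or 3 (-0.41). Myom2 differed by -0.28 ± 0.13 between TAC and sham hearts and did not pass (adjusted p = 0.0945). In TAC+PUE against TAC hearts Myom1 rose by 0.50 ± 0.17 (adjusted p = 0.0433) and Myom2 by 0.45 ± 0.16 (adjusted p = 0.0447). Neither rise passed after median-ratio scaling, at 0.14 and 0.09, and leaving out single libraries moved Myom1 to between 0.38 (TAC+PUE replicate 1) and 0.58 (TAC replicate 2) and lost its call for each of the 6, and that of Myom2 for each but TAC replicate 2, with values from 0.38 (TAC replicate 3) to 0.48 (TAC+PUE replicate 1). Mylk3, the cardiac kinase of the regulatory myosin light chain, averaged 126 ± 10.2 FPKM in TAC+PUE hearts, 105 ± 11.3 FPKM in TAC hearts and 151 ± 6.58 FPKM in sham hearts (SD, n = 3 each). It fell by 0.52 in TAC against sham hearts (adjusted p = 0.00512), but the difference was -0.10 on a common total, and -0.02 where rRNA-like transcripts were also taken out, and passed in neither. The Mybpc3 change between TAC+PUE and TAC hearts did not pass without TAC+PUE replicate 1 (-0.54) or 3 (-0.50) or without TAC replicate 1 (-0.51) or 2 (-0.50).

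The thin filament split by function. In TAC against sham hearts all 6 genes of troponin, cardiac actin and tropomyosin rose, under every scaling tried. The 4 others, which act at the pointed end or run along the filament, fell, where only Lmod2 and Neb still fell under every scaling. Neb entered the test only through sham hearts, so its fall is not independent of the filter. Of all genes tested, 25.3% rose and 37.7% fell. Tnni3, the inhibitory subunit of cardiac troponin, was at 608, 782 and 736 FPKM in TAC+PUE hearts, 1976, 1186 and 1410 FPKM in TAC hearts and 648, 771 and 677 FPKM in sham hearts. TAC hearts stood above both other groups without overlap, by 1.09 ± 0.20 over sham (adjusted p = 0.000947), and TAC+PUE hearts differed from TAC by -1.08 ± 0.22 (adjusted p = 0.00489), where they overlapped sham hearts. Tnnc1, which binds the calcium that starts contraction, was at 1046, 1268 and 993 FPKM in TAC+PUE hearts, 1962, 1765 and 1504 FPKM in TAC hearts and 793, 919 and 802 FPKM in sham hearts. Tnnt2, which ties troponin to tropomyosin, was at 404, 449 and 466 FPKM in TAC+PUE hearts, 812, 567 and 680.0 FPKM in TAC hearts and 399.9, 436 and 402 FPKM in sham hearts. The rises of Tnnc1 and Tnnt2 over sham were 1.05 ± 0.17 and 0.72 ± 0.16 (adjusted p = 0.000406 and 0.00314), and both fell in TAC+PUE against TAC hearts, by 0.66 (adjusted p = 0.0186) and 0.63 (adjusted p = 0.0201). The Tnnc1 fall did not pass without TAC+PUE replicate 1 (-0.63) or 3 (-0.59) or TAC replicate 1 (-0.57) or 2 (-0.65), and the Tnnt2 fall did not pass without TAC+PUE replicate 1 (-0.57) or TAC replicate 1 (-0.50).

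Actc1, the actin of the adult heart and the most abundant of the 37 transcripts, was at 2859, 2493 and 2498 FPKM in TAC+PUE hearts, 3267, 3845 and 2967 FPKM in TAC hearts and 1985, 2236 and 1997 FPKM in sham hearts. TAC hearts were above sham by 0.69 ± 0.18 (adjusted p = 0.00665), and in TAC+PUE against TAC the difference of -0.36 ± 0.19 did not pass (adjusted p = 0.155), although it passed on 3 of the other scalings. Reads of Actc1 may be shared with its near-identical skeletal paralog Acta1. Tpm1, the main cardiac tropomyosin, was at 466, 479.8 and 458 FPKM in TAC+PUE hearts, 879, 685 and 756 FPKM in TAC hearts and 428, 499 and 442 FPKM in sham hearts. It rose by 0.75 ± 0.15 in TAC hearts (adjusted p = 0.0017) and TAC+PUE hearts differed from TAC by -0.72 ± 0.17 (adjusted p = 0.0083), which placed them among sham hearts. Without the libraries high in Myl7 this fall was -0.73, a value that rests on 1 TAC+PUE library. Tpm2, a tropomyosin of lower level in heart, was at 8.77, 14.1 and 8.85 FPKM in TAC+PUE hearts, 10.5, 8.9 and 13.8 FPKM in TAC hearts and 4.23, 5.16 and 4.72 FPKM in sham hearts. Both operated groups were above sham without overlap, with 1.07 ± 0.16 for TAC (adjusted p = 0.00028), while TAC+PUE and TAC overlapped (-0.07 ± 0.21, adjusted p = 0.809). Tpm2 overlaps Car9 in the annotation, and its reads may in part belong there.

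Leiomodins add actin to the pointed end of the thin filament and tropomodulin caps it. Lmod2, the cardiac leiomodin, was at 273, 241 and 268 FPKM in TAC+PUE hearts, 156, 187 and 149 FPKM in TAC hearts and 346, 332 and 345 FPKM in sham hearts. The groups did not overlap, with a change of -1.06 ± 0.14 in TAC against sham hearts (adjusted p = 0.000133) and of 0.67 ± 0.16 in TAC+PUE against TAC (adjusted p = 0.00904), a rise that did not pass after median-ratio scaling (0.32). Tmod1, the cardiac tropomodulin, was at 77.8, 63.0 and 65.0 FPKM in TAC+PUE hearts, 39.0, 51.0 and 56.4 FPKM in TAC hearts and 77.8, 78.1 and 77.0 FPKM in sham hearts. It differed by -0.68 ± 0.15 in TAC against sham hearts (adjusted p = 0.00235), lost on a common total at -0.25, and by 0.49 ± 0.18 in TAC+PUE against TAC (adjusted p = 0.0462). That rise did not pass without TAC+PUE replicate 1 (0.40) or 3 (0.53) or TAC replicate 1 (0.34) or 2 (0.53), nor after median-ratio scaling (0.14). Lmod3, a leiomodin best known from skeletal muscle, averaged 35.0 ± 6.39 FPKM in TAC+PUE hearts, 28.6 ± 2.13 FPKM in TAC hearts and 35.7 ± 1.29 FPKM in sham hearts. Its fall of 0.31 in TAC against sham hearts (adjusted p = 0.035) turned to a value of 0.10 on a common total, and did not pass when sham replicate 1, 2 or 3 was left out (-0.29, -0.34 and -0.30) or without TAC replicate 2 (-0.34). Neb encodes nebulin, the giant ruler of the skeletal thin filament, and is scarce in heart. Its level was 1.79, 0.82 and 1.15 FPKM in TAC+PUE hearts, 0.286, 0.219 and 0.649 FPKM in TAC hearts and 1.23, 1.19 and 1.24 FPKM in sham hearts. TAC hearts were below both other groups, and the change against sham was -0.69 ± 0.12 (adjusted p = 0.000719). Every sham heart but no TAC heart reached 1 FPKM, so Neb entered this test only through the group where it was higher. Its fall, counted among the members that fell, is therefore not independent of the filter.

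At the Z-disc, 4 of 12 genes rose and 4 fell in TAC against sham hearts, against 25.3% and 37.7% of all genes. The sizes ranged more widely than anywhere else among the 37 genes. Nebl, whose product nebulette binds actin at the cardiac Z-disc, moved most. It was at 29.1, 17.3 and 22.4 FPKM in TAC+PUE hearts, 4.43, 5.91 and 9.93 FPKM in TAC hearts and 32.4, 28.6 and 32.5 FPKM in sham hearts. The log2 fold change was -2.11 ± 0.22 in TAC against sham hearts (adjusted p = 5.57e-05) and 1.66 ± 0.26 in TAC+PUE against TAC hearts (adjusted p = 0.00328), and both passed under every scaling tried and with each library left out in turn. Set against Actn2, the alpha-actinin that crosslinks actin at the Z-disc, the within-library ratio of Nebl was 0.0454 to 0.0736 in TAC+PUE, 0.0109 to 0.0267 in TAC and 0.0819 to 0.0992 in sham hearts. Actn2 itself averaged 372 ± 29.2 FPKM in TAC+PUE hearts, 399.6 ± 24.7 FPKM in TAC hearts and 336 ± 12 FPKM in sham hearts, and passed the test in none of the 3 comparisons.

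Csrp3, the muscle LIM protein of the stretch-sensing complex at the Z-disc, was at 174, 213 and 151 FPKM in TAC+PUE hearts, 255, 319.6 and 218 FPKM in TAC hearts and 102, 121 and 99.3 FPKM in sham hearts. No groups overlapped. Csrp3 rose by 1.28 ± 0.16 in TAC over sham hearts (adjusted p = 0.000134), the largest rise of the 37 genes, and fell in TAC+PUE against TAC hearts (-0.55 ± 0.20, adjusted p = 0.0442), which did not pass without TAC+PUE replicate 1 (-0.54) or 3 (-0.44) or TAC replicate 1 (-0.57) or 2 (-0.41). Its partner Tcap, the titin cap, averaged 831 ± 199 FPKM in TAC+PUE hearts, 1070 ± 155 FPKM in TAC hearts and 633 ± 73.5 FPKM in sham hearts, a rise of 0.75 ± 0.17 in TAC over sham hearts (adjusted p = 0.00282). Flnc, the muscle filamin that crosslinks actin at Z-discs and costameres, was at 95.8, 94.7 and 73.2 FPKM in TAC+PUE hearts, 95.2, 129 and 77.6 FPKM in TAC hearts and 50.4, 59.4 and 48.0 FPKM in sham hearts. Both operated groups were above sham hearts, by 0.90 ± 0.18 for TAC (adjusted p = 0.00158), and overlapped each other.

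Several Z-disc scaffolds were lowest in TAC hearts. Myot, the gene of myotilin, an actin-bundling Z-disc protein, was at 22.3, 25.3 and 18.7 FPKM in TAC+PUE hearts, 7.39, 12.5 and 9.46 FPKM in TAC hearts and 16.7, 14.9 and 17.0 FPKM in sham hearts. It fell by 0.70 in TAC against sham hearts (adjusted p = 0.00432), lost on a common total at -0.30, and rose by 1.12 ± 0.19 in TAC+PUE against TAC (adjusted p = 0.00369), under every scaling tried. Myoz2, which tethers the phosphatase calcineurin to the Z-disc, was at 181, 169 and 174 FPKM in TAC+PUE hearts, 98.1, 124 and 115 FPKM in TAC hearts and 179, 168 and 179 FPKM in sham hearts. The changes were -0.64 ± 0.13 in TAC against sham (adjusted p = 0.00175), with -0.22 and no call on a common total, and 0.64 ± 0.16 in TAC+PUE against TAC (adjusted p = 0.00985), with 0.29 and no call after median-ratio scaling. Mypn, the gene of myopalladin, which links nebulette to alpha-actinin, was at 32.7, 27.2 and 29.2 FPKM in TAC+PUE hearts, 17.7, 25.8 and 22.9 FPKM in TAC hearts and 32.2, 34.0 and 31.1 FPKM in sham hearts. It fell in TAC against sham hearts (-0.54 ± 0.14, adjusted p = 0.00749), though not past the test on a common total (-0.13), and in TAC+PUE against TAC the difference of 0.42 ± 0.17 did not pass (adjusted p = 0.0717).

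The PDZ and LIM proteins of the Z-disc bind alpha-actinin. Pdlim3 was at 6.56, 7.83 and 7.66 FPKM in TAC+PUE hearts, 1.93, 1.82 and 3.09 FPKM in TAC hearts and 2.93, 2.76 and 2.52 FPKM in sham hearts. TAC+PUE hearts stood above both TAC and sham hearts, which overlapped, with 1.36 ± 0.17 against TAC (adjusted p = 0.00324) and 1.16 ± 0.15 against sham (adjusted p = 0.00113). Pdlim5 averaged 38.0 ± 8.46 FPKM in TAC+PUE hearts, 23.5 ± 4.71 FPKM in TAC hearts and 29.8 ± 0.681 FPKM in sham hearts. It rose by 0.66 ± 0.20 in TAC+PUE against TAC hearts (adjusted p = 0.0219), a call lost after median-ratio scaling (0.32) and without TAC+PUE replicate 1 (0.49) or TAC replicate 1 (0.55) or 3 (0.62). Ldb3, also named Cypher or ZASP, averaged 117 ± 11.3 FPKM in TAC+PUE hearts, 84.8 ± 14.9 FPKM in TAC hearts and 101 ± 4.05 FPKM in sham hearts, and passed in no comparison. Synpo2l, an actin-associated Z-disc protein of the synaptopodin family, was at 76.2, 60.9 and 51.7 FPKM in TAC+PUE hearts, 36.5, 57.6 and 23.0 FPKM in TAC hearts and 22.3, 23.4 and 22.8 FPKM in sham hearts. TAC replicate 2 was far above replicate 3 of that group, and the rise of 0.65 ± 0.26 in TAC over sham hearts (adjusted p = 0.0451) did not pass without TAC replicate 1 (0.65) or 2 (0.33), or when sham replicate 1, 2 or 3 was left out (0.64, 0.67 and 0.65), or on a common total with rRNA-like and mitochondrial transcripts taken out (0.53).

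Of the 3 genes linked to intermediate filaments, Des rose and Cmya5 fell in TAC against sham hearts. Des encodes desmin, the filament that ties neighbouring Z-discs together, and averaged 478 ± 50.6 FPKM in TAC+PUE hearts, 543 ± 47.1 FPKM in TAC hearts and 324 ± 26.0 FPKM in sham hearts, with a rise of 0.74 ± 0.14 in TAC over sham (adjusted p = 0.00117). Cmya5, the gene of myospryn, a large desmin-binding protein, was at 108, 102 and 118 FPKM in TAC+PUE hearts, 68.1, 82.2 and 85.8 FPKM in TAC hearts and 137, 138 and 136 FPKM in sham hearts. TAC hearts lay lowest and sham hearts highest without overlap, with -0.80 ± 0.13 in TAC against sham (adjusted p = 0.000437). The rise of 0.47 ± 0.16 in TAC+PUE against TAC (adjusted p = 0.0348) was lost after median-ratio scaling (0.12) and without TAC+PUE replicate 1 (0.48) or 3 (0.42) or TAC replicate 1 (0.38) or 2 (0.51). Cryab, the alpha B-crystallin chaperone of desmin and titin, averaged 267 ± 54.2 FPKM in TAC+PUE hearts, 204 ± 33.9 FPKM in TAC hearts and 160.2 ± 21.4 FPKM in sham hearts, and did not pass between TAC and sham (adjusted p = 0.0802). It overlaps Hspb2 in the annotation, so its level is uncertain.

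The 3 ubiquitin ligases moved apart. Fbxo32 encodes atrogin-1, a muscle-specific ligase component known from atrophy, and was at 35.1, 33.6 and 29.8 FPKM in TAC+PUE hearts, 17.6, 20.3 and 21.5 FPKM in TAC hearts and 45.5, 45.6 and 44.6 FPKM in sham hearts. No groups overlapped, and the changes were -1.16 ± 0.12 in TAC against sham (adjusted p = 5.57e-05) and 0.70 ± 0.15 in TAC+PUE against TAC hearts (adjusted p = 0.00605), both of which passed under every scaling tried and with each library left out in turn. Trim63, the gene of MuRF1, another atrophy-linked ligase at the M-band, averaged 50.5 ± 5.23 FPKM in TAC+PUE hearts, 62.8 ± 2.22 FPKM in TAC hearts and 57.3 ± 0.81 FPKM in sham hearts, and passed in no comparison. The ratio of Trim63 to Fbxo32 FPKM within a library was 1.45 to 1.65 in TAC+PUE, 3.00 to 3.54 in TAC and 1.25 to 1.28 in sham hearts. Trim54, the gene of the related MuRF3, averaged 124 ± 17.7 FPKM in TAC+PUE hearts, 152 ± 13.4 FPKM in TAC hearts and 105 ± 6.79 FPKM in sham hearts and rose by 0.53 ± 0.13 in TAC over sham (adjusted p = 0.00434).

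Among the four-and-a-half LIM proteins, which bind titin's spring region, Fhl1 was at 33.5, 21.2 and 16.6 FPKM in TAC+PUE hearts, 9.69, 13.7 and 11.1 FPKM in TAC hearts and 12.1, 10.3 and 12.1 FPKM in sham hearts. TAC and sham hearts overlapped, and TAC+PUE hearts were above both, by 0.94 ± 0.23 over TAC (adjusted p = 0.0103). That rise did not pass without TAC replicate 1 (0.84) or after median-ratio scaling (0.61). Fhl2 averaged 474 ± 71.0 FPKM in TAC+PUE hearts, 538 ± 78.4 FPKM in TAC hearts and 394 ± 33.5 FPKM in sham hearts. Its rise of 0.44 ± 0.15 in TAC over sham (adjusted p = 0.0278) did not pass without sham replicate 1 (0.42) or 3 (0.40) or TAC replicate 2 (0.33). Smyd1 and Unc45b encode partners in the folding and assembly of myosin. Smyd1 averaged 76.2 ± 12.8 FPKM in TAC+PUE hearts, 55.5 ± 10.4 FPKM in TAC hearts and 76.6 ± 2.1 FPKM in sham hearts. It fell by 0.47 in TAC against sham (adjusted p = 0.0177), which became a difference of -0.05 on a common total and of 0.02 where rRNA-like transcripts were also taken out, with no call in either. The call was also lost without sham replicate 1 (-0.47) or 2 (-0.46). Unc45b averaged 41.7 ± 4.16 FPKM in TAC+PUE hearts, 47.5 ± 2.35 FPKM in TAC hearts and 38.4 ± 3.2 FPKM in sham hearts. Its rise of 0.30 ± 0.12 in TAC over sham (adjusted p = 0.0442) did not pass without sham replicate 1 (0.28) or 3 (0.26) or TAC replicate 2 (0.29) or 3 (0.27), nor on a common total with rRNA-like and mitochondrial transcripts taken out (0.17). It overlaps Slfn5os and Unc45bos in the annotation. The library kit was stranded, but the sources used here do not say whether strand was used in quantification.

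The long structural genes and the short thin-filament genes were set against each other. The 9 long structural genes are Ttn, Neb, Cmya5, Flnc, Mypn, Myom1, Myom2, Mybpc3 and Nebl, and the 7 short thin-filament genes are Tnni3, Tnnt2, Tnnc1, Actc1, Tpm1, Tpm2 and Tmod1. In TAC against sham hearts 2 of the 9 long genes rose and 6 fell (median log2 fold change -0.54), while 6 of the 7 short genes rose and 1 fell (median 0.75). Neb, one of those 6 long genes, entered this test only through sham hearts, so its fall is not independent of the filter. Of all genes tested there, 25.3% rose and 37.7% fell. On a common total 4 long genes, Neb among them, still fell and Tmod1 no longer passed, and the counts that rose were the same. On that scale 5311 and 2675 of 11656 genes rose and fell. In TAC+PUE against TAC hearts 5 of 8 long genes tested rose and 1 fell (median 0.46), while 1 short gene rose and 4 fell (median -0.63). Of all genes tested there, 32.9% rose and 5.45% fell. After median-ratio scaling 2 long genes rose and 1 fell, Tmod1 no longer passed, and 5 short genes fell, where 2111 and 2648 of 11629 genes rose and fell.

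**Figure D2:**
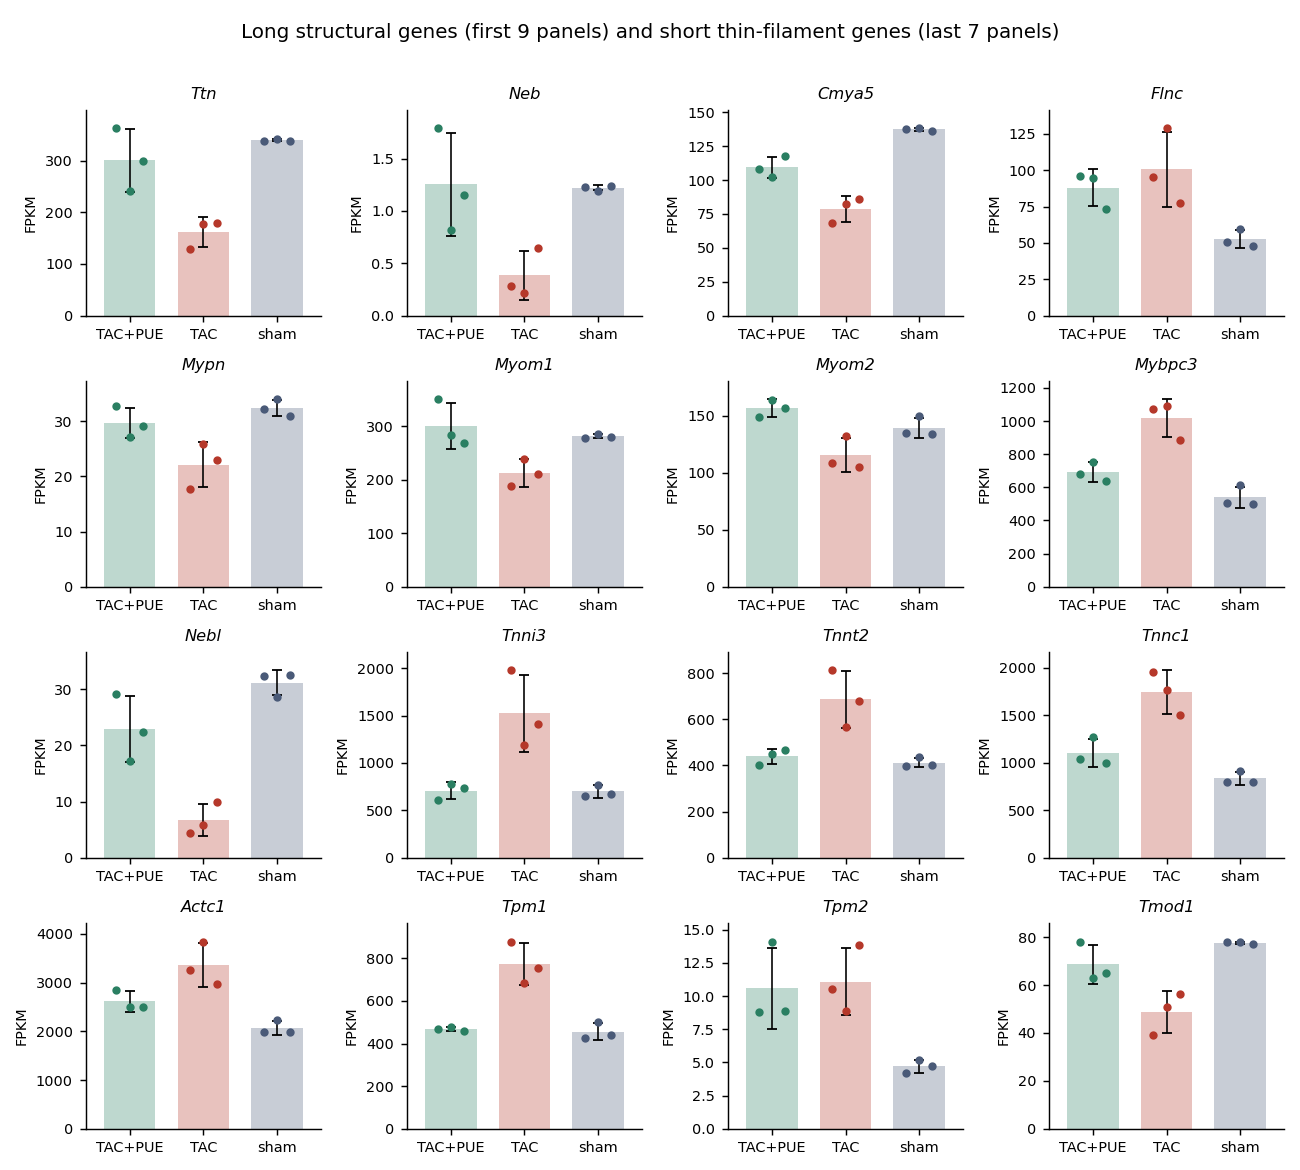
FPKM (vertical axes, from 0) of the 9 long structural genes and the 7 short thin-filament genes in TAC+PUE, TAC and sham hearts, with a point per library, bars at the mean and error bars of 1 SD (n = 3 mice). Ttn, Cmya5 and Nebl have their lowest points in TAC hearts (129 to 180 FPKM for Ttn), whereas Tnni3, Tnnt2, Tnnc1 and Tpm1 have their highest there (1186 to 1976 FPKM for Tnni3).

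A difference taken within each library removes most of the scale. The mean log2(FPKM + 1) of the long genes minus that of the short genes was -1.78, -2.17 and -1.97 in TAC+PUE hearts, -3.15, -2.67 and -2.84 in TAC hearts and -1.71, -1.81 and -1.76 in sham hearts. TAC hearts were lower than every other heart, and TAC+PUE replicate 1 lay within the range of sham. The group means were -1.97 ± 0.20 in TAC+PUE, -2.89 ± 0.25 in TAC and -1.76 ± 0.05 in sham hearts (SD, n = 3 each), so that TAC was lower than sham by 1.13, TAC+PUE higher than TAC by 0.91 and TAC+PUE lower than sham by 0.21. Without the libraries high in Myl7 the same differences were -1.15, 1.13 and -0.02. Those of TAC+PUE then rest on its replicate 1 alone, the library within the range of sham. No test is given, since the lists were chosen with results known.

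**Figure D3:**
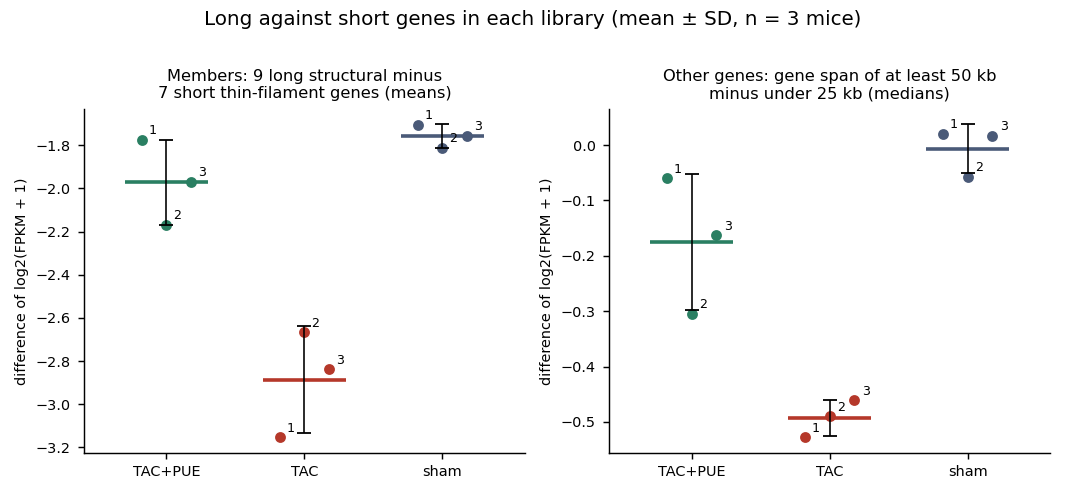
Left, the mean log2(FPKM + 1) of the 9 long structural genes minus that of the 7 short thin-filament genes in each library, and right, the median of other genes with a span of at least 50 kb minus the median of those under 25 kb, with replicate numbers, group means as lines and 1 SD as bars (n = 3 mice). TAC hearts lie lowest in both panels, at -2.89 on average on the left and -0.49 on the right.

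The same order of the groups appeared among genes at large, by another measure. Those genes were split by span and given as medians, whereas the member lists were not drawn by span and were given as means. Mybpc3 (18.4 kb) is in the long list and Tmod1 (77.1 kb) in the short list, so the sizes cannot be compared with those above. Genes outside the list whose span in the genome, introns included, was at least 50 kb had a median log2(FPKM + 1) that differed from that of genes under 25 kb by -0.06, -0.30 and -0.16 in TAC+PUE hearts, -0.53, -0.49 and -0.46 in TAC hearts and 0.02, -0.06 and 0.02 in sham hearts. The group differences were -0.49 between TAC and sham, 0.32 between TAC+PUE and TAC and -0.17 between TAC+PUE and sham hearts. In TAC against sham hearts the median log2 fold change of those other genes was 0.27 for spans under 10 kb and -0.38 for spans of at least 100 kb, and among the members it was 0.75 (8 genes) and -0.75 (6 genes). In TAC+PUE against TAC hearts it was 0.01 and 0.41 among other genes, and -0.27 (8 genes) and 0.66 (5 genes) among the members. Across genes, Spearman's rho of span with the TAC against sham fold change was -0.66 over the 37 members and -0.36 over 10860 other genes, and with the TAC+PUE against TAC fold change 0.55 over 36 members and 0.32 over 11036 others. Genes are not independent replicates, and all points share the same libraries. The shares of mitochondrial and rRNA-like transcripts given above moved with the groups too, and their part in this was not tested.

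**Figure D4:**
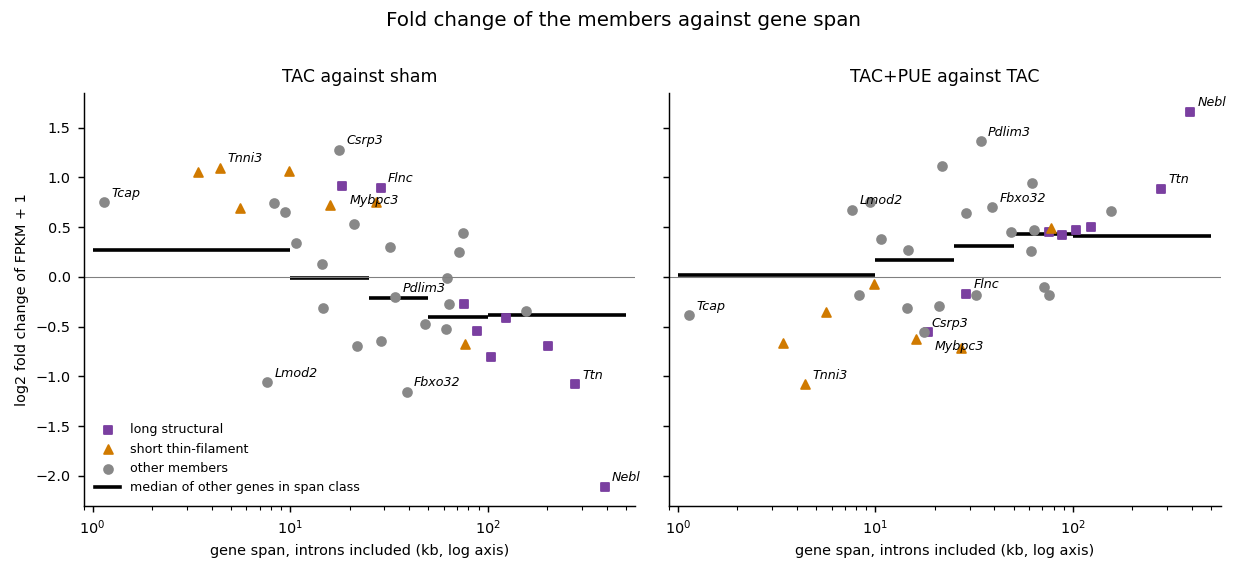
Log2 fold change (vertical axis) of each gene against its span in the genome in kb (horizontal log axis), on the left for TAC against sham and on the right for TAC+PUE against TAC, with squares for long structural genes, triangles for short thin-filament genes, circles for the other members and black lines at the median of all other genes in 5 classes of span. Short members lie high and long members low on the left, where the black lines run from 0.27 in the shortest class to -0.38 in the longest, and the slope is the opposite on the right.

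Within the lists the order of span recurred. In the long list, the 2 that rose in TAC hearts, Mybpc3 (18.4 kb) and Flnc (28.7 kb), have the shortest spans, and Nebl (392 kb) and Ttn (279 kb), which fell furthest, have the longest. In the short list Tmod1 (77.1 kb), which fell, has the longest span. Single genes departed from it. Lmod2 (7.64 kb) fell, where other genes of its class had a median of 0.27. Fhl2 (75.3 kb) rose, where others of its class had a median of -0.40.

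TAC+PUE hearts were compared with sham hearts in a fit of all 9 libraries. The 8 genes that were higher were Synpo2l, Pdlim3, Tpm2, Fhl1, Flnc, Csrp3, Cryab and Des, and the 1 that was lower was Fbxo32. Synpo2l was the largest at 1.40 ± 0.26 (adjusted p = 0.00801), followed by Pdlim3 (1.16 ± 0.15, adjusted p = 0.00113) and Tpm2 (0.99 ± 0.19, adjusted p = 0.00919), and these 3 passed under every alternative tried. Fhl1 was 0.94 ± 0.21 higher (adjusted p = 0.0197), but did not pass when sham replicate 1, 2 or 3 was left out (0.97, 0.86 and 0.97) or on a common total with rRNA-like and mitochondrial transcripts taken out (0.78). Flnc, Csrp3, Cryab and Des were higher by 0.72, 0.72, 0.72 and 0.56 (adjusted p = 0.0293, 0.0235, 0.027 and 0.0243). All 4 lost the call after median-ratio scaling (0.56, 0.55, 0.55 and 0.39), without sham replicate 1 (0.70, 0.69, 0.68 and 0.52), without sham replicate 3 (0.66, 0.67, 0.66 and 0.53) and without TAC+PUE replicate 2 (0.67, 0.59, 0.58 and 0.47), and Flnc also without TAC+PUE replicate 1 (0.66). Fbxo32 was lower, with a difference of -0.45 (adjusted p = 0.0293) that did not pass when sham replicate 1, 2 or 3 was left out (-0.45, -0.45 and -0.46) or TAC+PUE replicate 2 (-0.47) or 3 (-0.39). Nor did it pass on a common total (-0.29), also with rRNA-like transcripts taken out (-0.27).

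**Figure D5:**
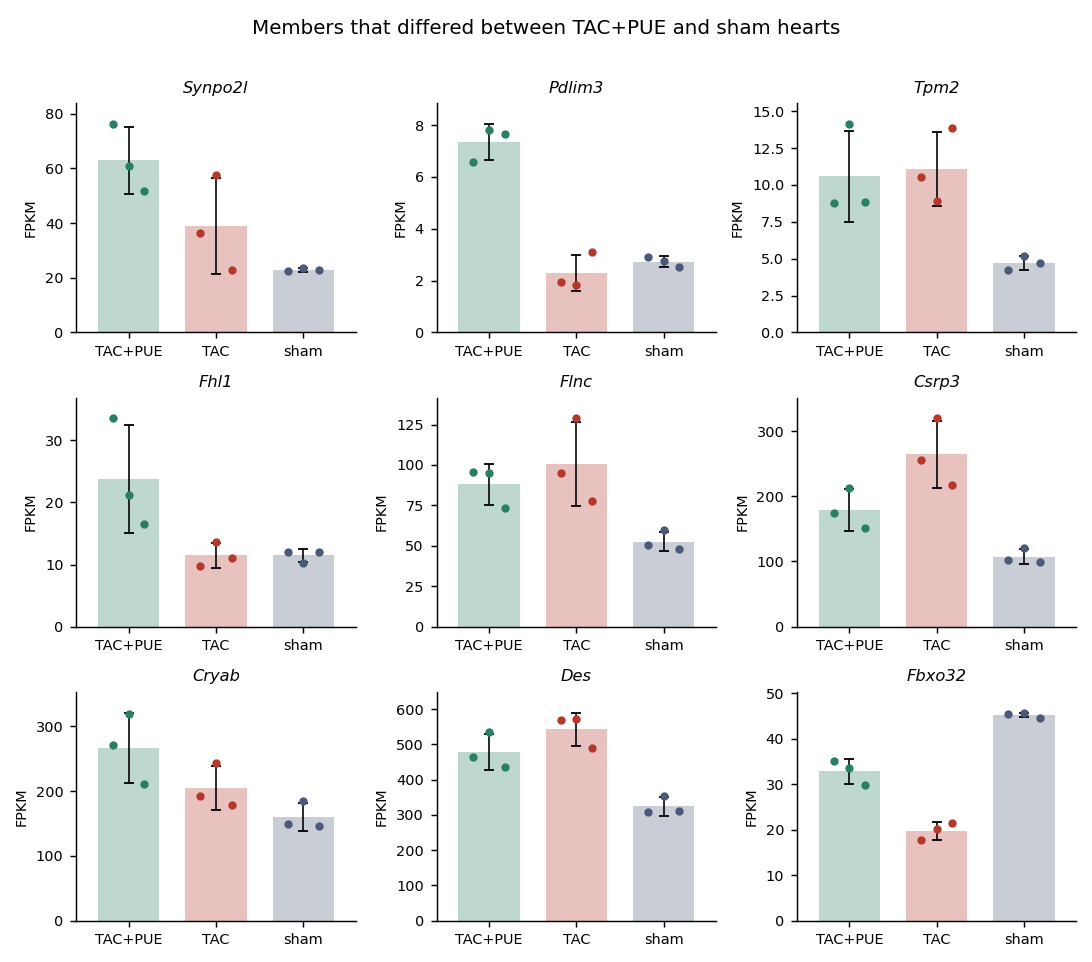
FPKM (vertical axes, from 0) of the 9 genes that passed the test between TAC+PUE and sham hearts, with a point per library of TAC+PUE, TAC and sham hearts, bars at the mean and error bars of 1 SD (n = 3 mice). Pdlim3 is high in TAC+PUE hearts alone (6.56 to 7.83 FPKM), Fbxo32 is lowest in TAC hearts (17.6 to 21.5 FPKM), and Tpm2, Flnc, Csrp3 and Des are higher in both operated groups than in sham hearts.

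Of 42 further genes of the sarcomere, Z-disc and costamere, 16 rose and 11 fell among 34 tested in TAC against sham hearts, and 11 rose and 3 fell among 37 in TAC+PUE against TAC hearts, against the shares of all genes given above of 25.3% and 37.7%, and of 32.9% and 5.45%. Median-ratio scaling changed the splits to 19 and 9 and to 7 and 8, where 4201 and 4066 of 11638 and 2111 and 2648 of 11629 genes rose and fell. Acta1, the skeletal actin re-expressed in overloaded hearts, was at 1287, 1358 and 733 FPKM in TAC+PUE hearts, 699.6, 1134 and 613 FPKM in TAC hearts and 157, 181 and 152 FPKM in sham hearts. It rose by 2.27 ± 0.21 in TAC over sham (adjusted p = 4.29e-05) and by 2.73 ± 0.26 in TAC+PUE over sham (adjusted p = 0.000306), and operated groups overlapped. Nexn, the actin-binding nexilin of the Z-disc, was at 93.2, 56.6 and 69.7 FPKM in TAC+PUE hearts, 20.9, 28.0 and 33.7 FPKM in TAC hearts and 82.2, 79.0 and 88.0 FPKM in sham hearts. Its changes were -1.58 ± 0.16 in TAC against sham (adjusted p = 5.66e-05) and 1.37 ± 0.22 in TAC+PUE against TAC (adjusted p = 0.00328). Xirp2, an actin-binding protein of the intercalated disc, was at 392, 206 and 201 FPKM in TAC+PUE hearts, 40.4, 78.2 and 52.4 FPKM in TAC hearts and 137, 125 and 136 FPKM in sham hearts, a rise of 2.18 ± 0.29 in TAC+PUE over TAC (adjusted p = 0.00328). Ankrd1 and Ankrd23 are titin-binding ankyrin repeat proteins that respond to stretch. Ankrd1 rose by 1.15 ± 0.26 in TAC+PUE over TAC (adjusted p = 0.00732), with 0.79 and no call after median-ratio scaling, and Ankrd23 by 1.46 ± 0.21 in TAC over sham (adjusted p = 0.00021). Capza1, a subunit of the actin-capping protein, rose by 1.15 ± 0.20 in TAC+PUE over TAC (adjusted p = 0.00373). The atrial genes Myl7, Myl4 and Mybphl were 6.42, 4.89 and 3.96 higher in TAC+PUE than in sham hearts (adjusted p = 0.0166, 0.0306 and 0.0257), with TAC+PUE replicate 2 highest in all 3. Without that library they were 5.39, 3.79 and 2.89 higher and did not pass. Myl4 and Mybphl stayed below 1 FPKM in every sham heart, so they entered the test only through operated hearts. Calls were also lost without sham replicate 1 (6.45, 4.85 and 3.93) or 3 (6.37, 4.86 and 3.98), and for Myl4 and Mybphl without sham replicate 2 (4.94 and 3.97) or TAC+PUE replicate 3 (4.79 and 3.87). Myl7 was also 4.12 ± 1.19 higher in TAC than in sham hearts (adjusted p = 0.0116), which did not pass without TAC replicate 1 (3.51) or 3 (2.86).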

How the data were processed

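RNA was measured in 3 TAC+PUE, 3 TAC and 3 sham hearts, grouped by the labels. The authors aligned reads with Hisat2 and assembled and quantified transcripts with StringTie and Ballgown, and the submitters' notes name mm9. The deposited values are FPKM per gene, in 1 table of TAC and sham and 1 of TAC+PUE and TAC, with the same TAC values in both, and depth is unknown: of 5555 low genes at most 5 shared a ratio between libraries, so no reads were recovered. Each table lists only genes whose mean reached 0.500 FPKM in at least 1 of its groups. The methods name TPM, and FPKM was used as deposited.

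Limma 3.58.1 (R 4.3.3; lmFit, eBayes with trend) was run two-sided on log2(FPKM + 1) for genes that reached 1 FPKM in 3 or more libraries, with Benjamini-Hochberg adjustment over all genes tested, 3 libraries against 3, and as 1 fit of 9 libraries for TAC+PUE against sham. A fold change on this scale understates that of low genes. With 3 mice per group p-values reflect the spread between these animals. The test was checked on simulated data with independent genes of which few were changed. That check does not cover the shifts of scale between these groups. The members and lists were chosen with earlier results of these data known. All 37 members are named: per library for both length lists, the 8 largest called changes in TAC against sham and in TAC+PUE against TAC, and those called in different directions in these 2 comparisons, and as means ± SD otherwise, with Synpo2l added after its values were seen, and up to 4 further sarcomere genes per comparison by size. Protein lengths had been planned, and spans in the RefSeq gene table (GRCm38.p6, 89.9% of genes matched) were used instead, only as lengths and for overlaps. Figures and tables used Python 3.11.15, pandas 2.3.3, numpy 2.4.6 and matplotlib 3.10.9.

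The alternatives changed the pseudocount to 0.1 or to 5, dropped the filter, scaled by median ratios, took out rRNA-like Gm26917 and Gm42418, alone or with 13 mitochondrial mRNAs, with rescaling to the mean total, or used a joint or a separate fit, the replicate number as a block, leaving out each library, and leaving out the 3 libraries with at least 100 FPKM of Myl7. Rescaling to a common total with nothing removed was added after seeing the data. FPKM of overlapping genes and close paralogs are uncertain, since the library kit was stranded but the sources used here do not say whether strand was used in quantification.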

Additional observations from a re-analysis of the deposited data

How the results depend on the processing

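The long minus short difference of the members kept its direction under every alternative that left more than 1 TAC+PUE library. It was -1.24 to -0.99 for TAC against sham, 0.78 to 1.02 for TAC+PUE against TAC and -0.31 to -0.11 for TAC+PUE against sham when each library was left out in turn. Without the 3 libraries high in Myl7 it was -0.02 for TAC+PUE against sham, a value that rests on 1 TAC+PUE library. Counts depended on the scale. Here removal of transcripts always includes rescaling to a common total, which alone gave most of the shift seen with rRNA-like transcripts removed in TAC against sham. For TAC against sham, 14 members lower became 6 with rRNA-like transcripts removed and 6 on a common total, with 19 higher in both. Of all genes, 5766 and 2427 of 11762, and 5311 and 2675 of 11656, rose and fell in these settings. With mitochondrial mRNAs removed too, 13 members were higher and 17 lower, where 2775 and 5834 of 12508 genes were. Leaving out single libraries gave 12 to 15 higher and 11 to 15 lower. For TAC+PUE against TAC, 13 higher and 6 lower became 5 and 13 after median-ratio scaling, 5 and 11 with rRNA-like transcripts removed and 7 and 10 on a common total. With mitochondrial mRNAs removed too they were 14 and 7. Of all genes, 2111 and 2648 of 11629, 2327 and 2200 of 11796, 2571 and 1821 of 11705, and 4097 and 1041 of 12197 rose and fell in these 4 settings. Leaving out the 3 libraries high in Myl7 leaves 1 TAC+PUE library, so no counts are given for it. Leaving out 1 library gave 7 to 11 higher and 2 to 6 lower. For TAC+PUE against sham, 8 higher and 1 lower became 4 and 4 after median-ratio scaling, where 811 and 825 of 12147 genes rose and fell. With rRNA-like transcripts removed they were 14 and 0 (3857 and 125 of 12273 genes), and with mitochondrial mRNAs removed too 3 and 5 (859 and 642 of 12964). They were 13 and 0 on a common total (3635 and 133 of 12210), and 8 and 3 in a fit of those 6 libraries alone (1738 and 322 of 11931). Leaving out 1 library gave 3 to 8 higher and 0 to 3 lower. Scaling moved the median of all genes as given above. It multiplies every gene of a library by the same factor, and on the scale of log2(FPKM + 1) low genes shift less than high ones. Where the limma count of lower members was 0, 1 to 3 had an unadjusted p under 0.05. The cause was not tested.

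The sign turned for Myom1 (0.0936 with rRNA-like transcripts removed, 0.0188 on a common total), Lmod3 (0.18 and 0.10) and Smyd1 (0.0225 with rRNA-like transcripts removed) in TAC against sham. Of the called members, 18 of 29 kept the call in TAC against sham under all alternatives, 6 of 19 in TAC+PUE against TAC and 3 of 9 in TAC+PUE against sham. Of those not called, all 8, 11 of 17 and 11 of 28 passed under at least 1 alternative, so a missed threshold does not show that a gene was unchanged. The labels give no pairing of mice by replicate number, and with 3 libraries per group these values cannot exclude one. Same-numbered deviations correlated at -0.02, 0.00 and 0.06 for TAC and sham and at -0.26, -0.11 and 0.19 for TAC+PUE and TAC. For TAC+PUE and sham they correlated at 0.19, 0.30 and 0.04. There each TAC+PUE heart correlated best with its own number, but sham replicate 3 did so with TAC+PUE replicate 1 (0.16). The replicate block gave 15 higher and 14 lower, 11 and 6, and 8 and 1 in the 3 comparisons. Depth is unknown, and 3 mice per group limit the precision.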

Other observations

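The lists of lncRNA transcripts that the authors selected between these groups hold 1 transcript named after a member, Tpm1-219, a noncoding transcript of the tropomyosin locus. It was at 110, 142 and 114 FPKM in TAC+PUE hearts, 177, 166 and 230 FPKM in TAC hearts and 107, 148 and 114 FPKM in sham hearts. TAC hearts were above both other groups, which the selection itself favours, and no test is given. It belongs to the same gene as the coding Tpm1 transcripts, and its level is uncertain where they share exons.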
